A study of Mus musculus with 2 samples.

Results

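The miR-99/100 and miR-125 families were measured in the exosomes of mouse bone marrow mesenchymal stem cells (BMSCs, stromal cells that can form bone, cartilage and fat) grown in normoxia or in hypoxia. Their members were the mature miRNAs mmu-miR-99a-5p, mmu-miR-99b-5p, mmu-miR-99b-3p, mmu-miR-100-5p, mmu-miR-125a-5p, mmu-miR-125a-3p, mmu-miR-125b-5p and mmu-miR-125b-1-3p, taken by name. They made up 8 of the 1881 mouse miRNAs on the array.

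The BMSCs came from C57BL/6 mice, were bought from a supplier and were grown in medium whose serum had been cleared of bovine exosomes, per the study's methods. One culture stayed in normoxia, and the other was held at 0.2% oxygen; the medium of each was collected after 72 h, and its exosomes were precipitated with a commercial reagent. Exosomal RNA was hybridised to an Agilent 1-colour mouse miRNA array, with 1 array per condition and no biological repeat. No test between the conditions could therefore be run. Each SD and standard error (SE) below is over replicate spots inside an array. It covers the scatter between spots of that array, but not differences between arrays in hybridisation or scanning, nor between cultures, exosome isolations or labellings. Genotype, strain, cell source, collection time and labelling were shared by both groups, and oxygen was the labelled difference. The arrays shared a slide, on which position and condition cannot be told apart, and the scanner software marked the hypoxia array for evaluation.

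A miRNA is cut from one arm of a hairpin precursor (5p or 3p) and directs the silencing complex to mRNAs that pair with its seed, the bases near its 5′ end. The miR-99/100 family belongs to the wider miR-10 family and is known for targeting mTOR and the IGF1 receptor. The miR-125 family is the mammalian counterpart of worm lin-4, a timing regulator of development, and is known for roles in blood stem cells. In mammals a miR-99/100 hairpin, a let-7 hairpin and a miR-125 hairpin lie side by side in conserved clusters.

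The mature sequences are shown because the 5p arms of each family differ by few bases, while their differences between the conditions were not alike. All are written 5′ to 3′ from RefSeq (GRCm38.p6), with the seed, bases 2 to 8, in capitals.
mmu-miR-100-5p: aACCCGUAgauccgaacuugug
mmu-miR-99a-5p: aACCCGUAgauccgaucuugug
mmu-miR-99b-5p: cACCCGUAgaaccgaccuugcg
mmu-miR-99b-3p: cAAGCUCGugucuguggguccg
mmu-miR-125b-5p: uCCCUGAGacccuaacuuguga
mmu-miR-125a-5p: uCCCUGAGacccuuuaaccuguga
mmu-miR-125a-3p: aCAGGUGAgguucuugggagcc

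The 5p arms of the miR-99/100 family shared the seed ACCCGUA, which only these 3 of 1679 mature names in the RefSeq table carried. miR-99a-5p differed from miR-100-5p by the single substitution A16U, counted from the 5′ end with the miR-100-5p base first, so 21 of 22 bases were the same. miR-99b-5p differed from miR-100-5p by A1C, U11A, A16C and U21C, which left 18 of 22 bases the same. Probes for RNAs this similar may take up each other's target, and the extent of that was not tested here.

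The 5p arms of the miR-125 family shared the seed CCCUGAG. miR-125a-5p is 24 bases long and miR-125b-5p 22, and they had the first 13 and the last 5 bases in common. This seed stood in 5 of the 1679 names; the other carriers, miR-351-5p, miR-6367 and miR-6394, were on the array and none of them was detected on either array. The 3p arms have seeds of their own. Only miR-125a-3p carried CAGGUGA, and AAGCUCG was carried by miR-99b-3p and miR-99a-3p.

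The hairpins lie in 3 clusters, each on a single strand. On chromosome 16, Mir99a, Mirlet7c-1 and Mir125b-2 span 47.4 kb, with miR-99a-5p at chr16:77598940-77598961 (+). On chromosome 9, Mir100, Mirlet7a-2 and Mir125b-1 span 50.6 kb inside the long non-coding RNA gene Mir100hg, with miR-100-5p at chr9:41531437-41531458 (+). On chromosome 17, Mir99b, Mirlet7e and Mir125a lie within 683 bases inside the protein-coding gene Spaca6, with miR-99b-5p at chr17:17830194-17830215 (+) and miR-125a-5p at chr17:17830817-17830840 (+). miR-125b-5p has the same sequence from the chromosome 16 hairpin (chr16:77646279-77646300, +) and the chromosome 9 hairpin (chr9:41581940-41581961, +), so its signal cannot be assigned to either.

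Detection of a miRNA required a probe with over 50% of spots that the scanner software marked well above background. By this call 225 of all miRNAs were detected in normoxia and 199 in hypoxia, and 180 on both arrays. Of the 8 members, 7 were detected in normoxia and 6 in hypoxia. The 6 detected on both arrays were miR-99b-5p, miR-99b-3p, miR-100-5p, miR-125a-5p, miR-125a-3p and miR-125b-5p. miR-99a-5p was detected in normoxia only, and miR-125b-1-3p on neither array. No spot of a member was saturated.

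The labelled cell type was checked against marker miRNAs. Of 7 mesenchymal stromal markers, 6 were detected on both arrays, with a summed signal of 915 in normoxia and 883 in hypoxia before normalization, and miR-145a-5p was not detected. On the quantile-normalized scale used for the members, 5 of these 6 markers had log2 differences above 0, from 0.03 for miR-199a-3p to 1.20 for miR-214-3p, and miR-31-5p was at -0.14. None of 6 epithelial markers was detected. Markers of other sources differed between the arrays, in sums that include undetected markers. The 3 erythroid markers summed to 474 in normoxia (2 detected) and 32.4 in hypoxia (1 detected). The 4 haematopoietic markers summed to 31.5 (1 detected, miR-223-3p) and 4.26 (0 detected). The liver miRNA miR-122-5p read 78.5 in normoxia and 7.04 in hypoxia, where it was not detected. Of the 3 striated muscle markers, which summed to 34.9 and 23.6, only miR-206-3p was detected, on both arrays. The part of these in the members' differences was not tested.

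Among the members detected on both arrays, 5 of 6 were higher in hypoxia after quantile normalization and 1, miR-125b-5p, was lower, where 102 of all 180 (56.7%) were higher. miR-125a-3p was 3.69-fold and miR-99b-5p 2.60-fold higher, so 2 of 6 members were at least 2-fold higher, where 18.3% of the 180 miRNAs detected on both arrays were (33). No member was at least 2-fold lower, where 10% of the 180 were (18). The members' median log2 difference, hypoxia minus normoxia, was 0.68, with a range from -0.32 to 1.88. Over all 180 it was 0.17, with quartiles of -0.41 and 0.71. For scale, miR-210-3p, the best known hypoxia-induced miRNA, had a log2 difference of 5.30. With 6 members, these counts are a description.

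**Figure D1:**
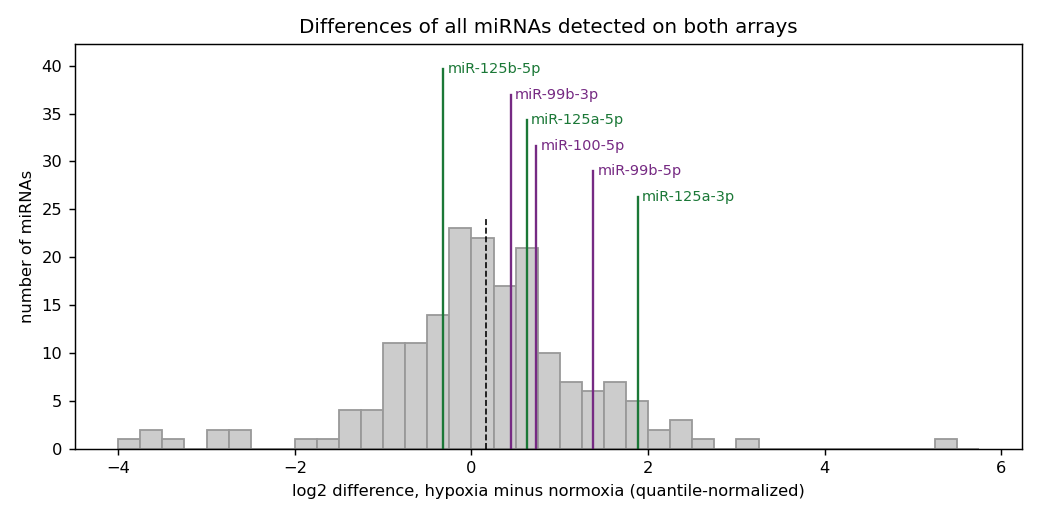
Histogram of the log2 difference (hypoxia minus normoxia, quantile-normalized signal) of the 180 miRNAs detected on both arrays, in number of miRNAs per bin of width 0.25. The dashed line is the median, 0.17; coloured lines mark the members (purple, miR-99/100 family; green, miR-125 family), of which miR-125b-5p alone lies below it.

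In the miR-99/100 family, miR-100-5p was the member with signal well above background on every spot kept of both its probes. Its brighter probe had a processed signal (background-subtracted linear intensity) of 268 ± 11.6 in normoxia (SD, n = 14 spots) and 319 ± 29.4 in hypoxia (n = 15). Its dimmer probe read 96.9 ± 7.19 (n = 15) and 141 ± 14.1 (n = 12). Before any normalization, 13 of 15 hypoxia spots of the brighter probe and 11 of 12 of the dimmer probe lay above the highest normoxia spot, and 1 hypoxia spot of the brighter probe lay below the lowest. After normalization the probes differed in size, with log2 differences of 0.45 ± 0.038 and 1.02 ± 0.050 (SE over spots), so the dimmer probe passed 2-fold and the brighter did not. Their mean was 0.73 ± 0.031, or 1.66-fold, the 44th of 180 from the most increased. This SE leaves out the disagreement between the probes, as does every SE here of a mean over probes.

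miR-99b-5p, which carries the same seed, was close to the limit of detection in normoxia. Its detected probe had 8 of 15 spots well above background there and read 15.0 ± 5.5 (lowest spot 0.271, median 16.6, highest 21.7), where the lowest mean of any detected probe was 14.5. In hypoxia 12 of 13 spots were well above background, and the signal was 26.6 ± 7.95 (lowest 3.70, median 29.6, highest 34.2). Of these hypoxia spots 10 lay above the highest normoxia spot. The log2 difference was 1.38 ± 0.18, the 24th of 180, and the other probe of miR-99b-5p was detected on neither array.

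miR-99b-3p, the opposite arm of the same hairpin, did not differ beyond the spread of its spots before normalization. Its detected probe read 25.5 ± 6.80 in normoxia (n = 7; lowest 16.6, median 26.3, highest 36.9) and 23.5 ± 8.12 in hypoxia (n = 7; lowest 14.1, median 19.6, highest 35.2), with overlapping spots. After normalization the log2 difference was 0.44 ± 0.24. The other 3 probes were not detected. The 5p arm of Mir99b exceeded the 3p arm in log2 difference by 0.93 ± 0.30.

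miR-99a-5p, 1 base away from miR-100-5p, was called detected in normoxia only. Its brighter probe read 20.3 ± 3.79 in normoxia, with 15 of 15 spots well above background (lowest 15.8, median 18.9, highest 29.2). In hypoxia it read 14.1 ± 3.14, with 7 of 15 spots well above background (lowest 7.51, median 14.7, highest 19.2), and 9 of the 15 lay below the lowest normoxia spot. That count of 7 is just short of the 50% needed, and quantile normalization brought the probe means to 17.3 and 16.9. By this call miR-99a-5p was at least 1.02-fold lower, a bound so near 1 that it fixes no difference, and no bound above 1 was reached with the 75th percentile of all probes or the median of all spots. The software's own call detected miR-99a-5p on both arrays, with a log2 difference of -0.53 in its summed signal without normalization, where the median over the miRNAs so called was -0.26. The other probe of miR-99a-5p was detected on neither array.

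**Figure D2:**
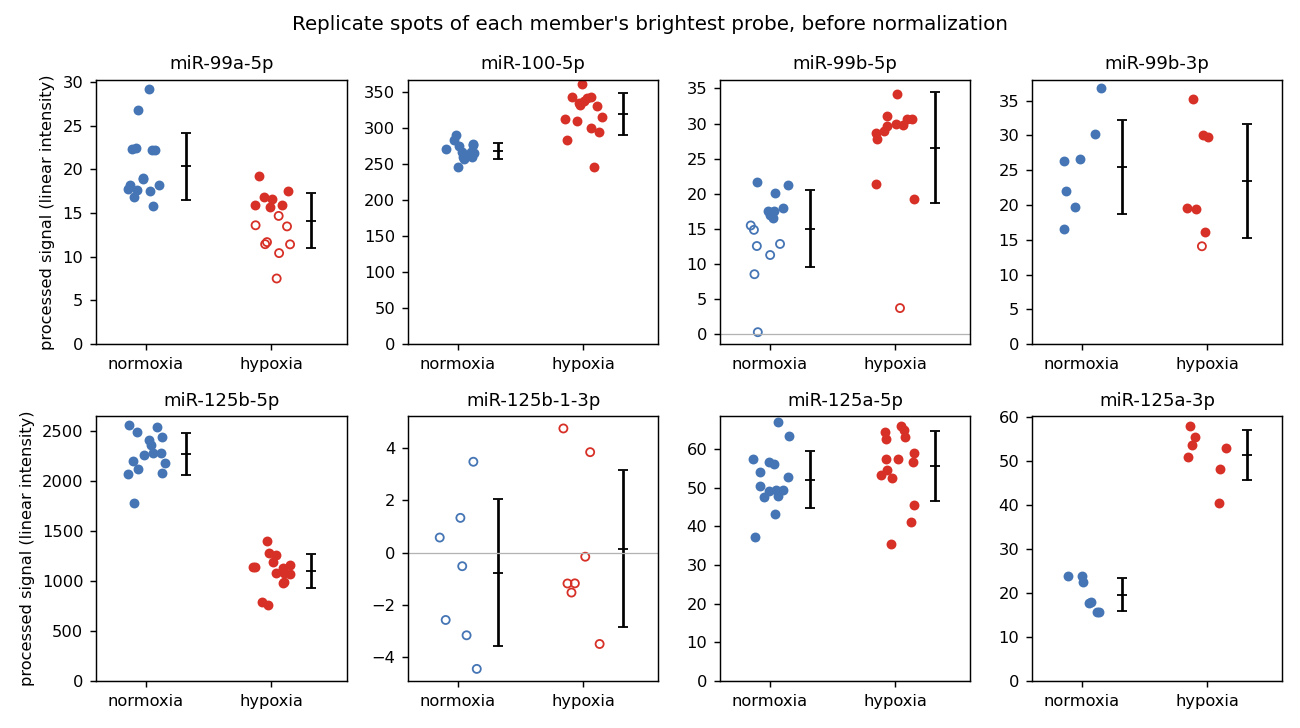
Processed signal (linear intensity, before normalization) of the replicate spots of each member's brightest probe, in normoxia (blue) and hypoxia (red), with outlier spots left out. Filled points are well above background and open points are not; bars give mean ± SD over spots. Hypoxia spots of miR-125a-3p lie wholly above and those of miR-125b-5p wholly below their normoxia spots, and miR-125b-1-3p scatters around 0 on both arrays.

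In the miR-125 family, miR-125b-5p was lower in hypoxia on both of its probes. The bright probe read 2264 ± 209 in normoxia (lowest 1772, median 2271, highest 2551) and 1095 ± 168 in hypoxia (lowest 763, median 1130, highest 1393; n = 15 spots each). All 15 hypoxia spots lay below the lowest normoxia spot. The dim probe read 83.4 ± 12.1 and 50.7 ± 11.4 (n = 15 each), with 11 of 15 hypoxia spots below the lowest normoxia spot. Quantile normalization narrowed the gap to log2 differences of -0.43 ± 0.067 and -0.21 ± 0.10. Their mean was -0.32 ± 0.060, or 1.25-fold lower, the 129th of 180, and 0.49 below the median of all.

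miR-125a-5p, which shares the seed of miR-125b-5p, did not follow it. Its detected probe read 52.1 ± 7.48 in normoxia (lowest 37.1, median 50.4, highest 66.8) and 55.5 ± 8.96 in hypoxia (lowest 35.5, median 57.3, highest 65.9; n = 15 each). The spots of the arrays overlapped, and the log2 difference was 0.09 before normalization and 0.63 ± 0.080 (1.54-fold, the 54th of 180) after it. The log2 difference of miR-125b-5p was below that of miR-125a-5p by -0.95 ± 0.10 after quantile normalization, and by -0.98 with any single scaling factor per array, so the gap between these relatives was much the same either way.

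miR-125a-3p, the other arm of the Mir125a hairpin, had the largest log2 difference of the members after quantile normalization with the filter on dim probes. Its detected probe read 19.7 ± 3.71 in normoxia (lowest 15.8, median 17.9, highest 24.0) and 51.4 ± 5.79 in hypoxia (lowest 40.5, median 53.2, highest 58.1), over 7 spots each, all well above background. The spots of the arrays did not overlap, and the log2 difference was 1.88 ± 0.12, the 10th of 180. The value rests on 1 of 4 probes, since the other 3 were below the detection call on both arrays, with means from 3.91 to 8.16 in normoxia and from 9.72 to 11.6 in hypoxia. With no filter on dim probes, any normalized signal under its array's lowest detected one was raised to it (12.0 in normoxia, 16.1 in hypoxia). The other 3 probes lay under it on both arrays, so each gave the same fixed difference and their own signals did not count. The mean over the 4 probes was then 0.79, under that of miR-99b-5p (0.90) by the same rule. With normexp background correction the log2 difference of miR-125a-3p was 0.65. The 3p arm exceeded the 5p arm of Mir125a in log2 difference by 1.26 ± 0.14. The arm ahead was thus the 3p arm in Mir125a and the 5p arm in Mir99b, but the computed size of both gaps changed with the handling of dim signals. With no filter on dim probes the gaps were 0.27 and 0.47, and with normexp 0.40 and 0.18. Neither setting can tell whether the size of the gaps holds. Without the filter, the undetected probes of all these arms entered with the same fixed difference, which narrows a gap by construction. The normexp offset, added to every signal, likewise shrinks log2 differences between signals this dim.

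miR-125b-1-3p, the 3p arm of the chromosome 9 hairpin, had no spot well above background among its 4 probes on either array. The remaining arms of these hairpins, miR-99a-3p, miR-100-3p and miR-125b-2-3p, were likewise not detected on either array, so a 3p arm was seen only from the chromosome 17 cluster.

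The let-7 miRNAs of the clusters, regulators of growth and differentiation, were compared with the members beside them. Outside these clusters, let-7a-5p also has a locus on chromosome 13 and let-7c-5p on chromosome 15. let-7e-5p, which has its only hairpin in the chromosome 17 cluster, had a log2 difference of 0.38 ± 0.054. It was below miR-125a-5p by -0.25 ± 0.097 and below miR-99b-5p by -1.0 ± 0.19. With quantile normalization and the dim-probe filter, all detected products of the chromosome 17 cluster had log2 differences above the median of all 180 miRNAs. With the software's own call and summed signal, miR-99b-3p lay below the median, at -0.66 against -0.26. The median over all miRNAs was not taken with no filter on dim probes.

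The mature miRNAs encoded in the clusters on chromosomes 9 and 16 were mixed. The signals of let-7a-5p, let-7c-5p and miR-125b-5p cannot be assigned to a single hairpin each. let-7a-5p and let-7c-5p are close in sequence, and uptake of each other's target by their probes was not tested. let-7c-5p had a log2 difference of -0.33 ± 0.046 and let-7a-5p of -0.42 ± 0.044. On each of their probes, all hypoxia spots lay below the lowest normoxia spot before normalization. Minus that of miR-125b-5p, the log2 difference of let-7c-5p was -0.01 ± 0.075 after quantile normalization and 0.22 with a single scaling factor. miR-100-5p stood apart from the miRNAs encoded beside it on chromosome 9, which also have loci elsewhere. The log2 difference of let-7a-5p was below that of miR-100-5p by -1.16 ± 0.054, and that of miR-125b-5p by -1.05 ± 0.068. The latter gap was -1.28 with a single scaling factor. The SEs of these gaps leave out the disagreement between the probes of miR-100-5p. The median of the 3 let-7 miRNAs was -0.33. let-7e-3p, let-7c-1-3p and let-7a-2-3p were not detected.

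**Figure D3:**
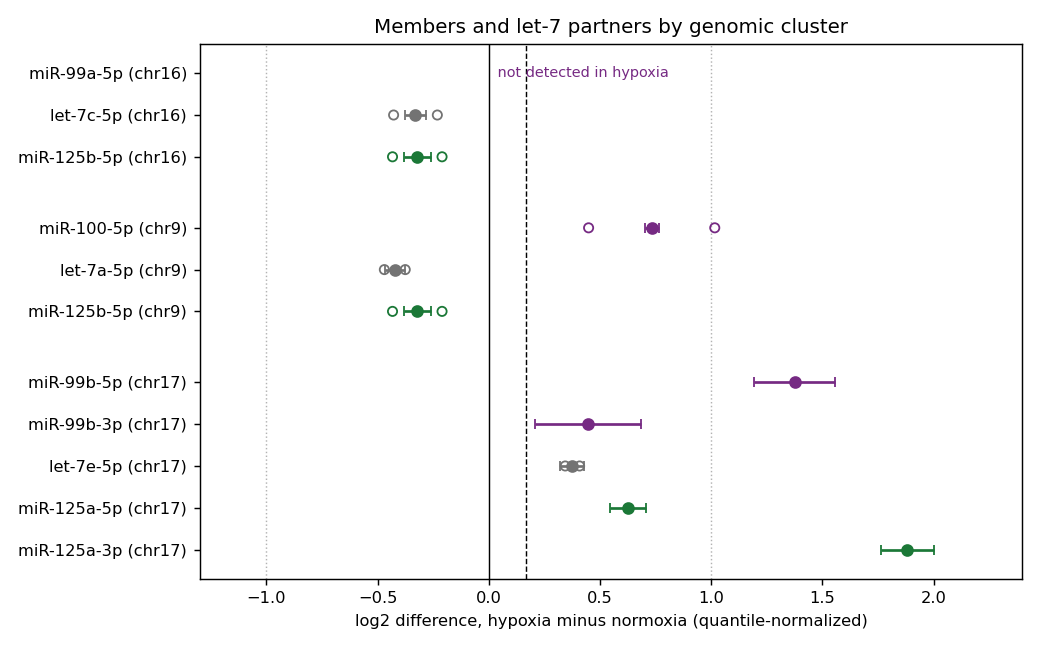
Log2 difference (hypoxia minus normoxia, quantile-normalized) of members and let-7 partners, grouped by the chromosome of their cluster; miR-125b-5p appears under both of its hairpins. Filled points are means over probes with SE over spots, open points single probes where more than 1 was detected, the dashed line is the median of all 180 miRNAs (0.17) and dotted lines mark 2-fold; products of the chromosome 17 cluster all lie right of the dashed line.

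Among other sequence relatives, miR-10a-5p, of the same wider family as miR-100-5p but with a different seed, had a log2 difference of 0.44 ± 0.055, and miR-10b-5p was not detected. The miRNAs outside these lists whose log2 differences were nearest to the members' median were miR-3082-5p (0.68), miR-21a-3p (0.69) and miR-652-3p (0.66). This likeness rests on the 2 arrays alone.

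Because the arrays differed in brightness, the members were set against the median of all 180 miRNAs under 6 scalings. That median moved from -0.27 without normalization to 0.66 when the 75th percentile over all probes was set equal, and the members moved with it. Without normalization miR-100-5p had a log2 difference of 0.39, miR-99b-5p of 0.82, miR-125a-5p of 0.09, miR-125a-3p of 1.39, miR-99b-3p of -0.12 and miR-125b-5p of -0.88. The order of the members was the same after quantile normalization and without normalization. The other scalings use a single factor per array, which cannot change the order. miR-99b-3p turned below 0 without normalization, and miR-125b-5p turned above 0, to 0.04, with that percentile.

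Relative to the median of all miRNAs, no member changed side between quantile normalization and scaling by a single factor per array. Every scaling but quantile is of the latter kind and gives the same distance from the median. The ends of each range below are therefore the quantile and the single-factor value. miR-125a-3p stayed between 1.66 and 1.72 above it, miR-99b-5p between 1.09 and 1.21, miR-100-5p between 0.57 and 0.66, miR-125a-5p between 0.36 and 0.46, and miR-99b-3p between 0.15 and 0.28. miR-125b-5p stayed between -0.61 and -0.49. miR-99b-3p and let-7e-5p, the latter between 0.10 and 0.21, lay closest to the median, within or near the SD of their own spots (0.63 and 0.21).

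**Figure D4:**
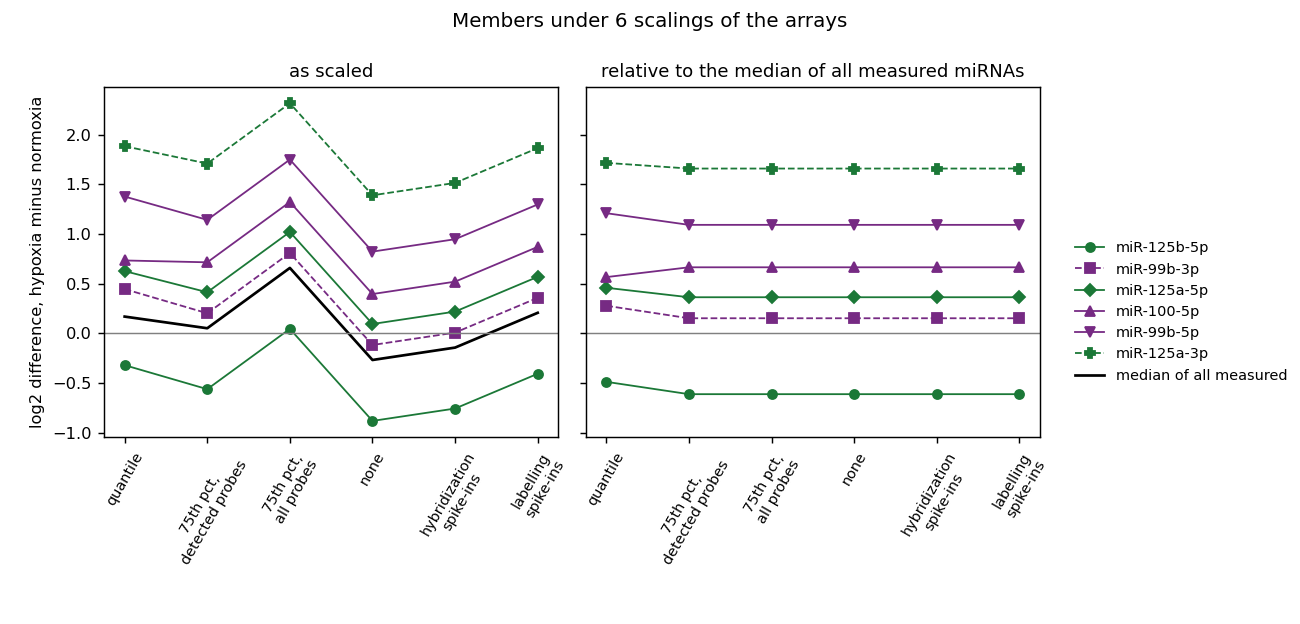
Log2 difference (hypoxia minus normoxia) of the 6 members detected on both arrays under 6 scalings of the arrays, as scaled (left, with the median of all 180 miRNAs in black) and relative to that median (right). Purple is the miR-99/100 and green the miR-125 family, dashed lines are 3p arms; all lines move together on the left, and on the right only miR-125b-5p lies below 0. On the right, all scalings but quantile give the same values by construction.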

How the data were processed

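Exosomal RNA of 1 normoxic and 1 hypoxic BMSC culture was profiled on 2 arrays, 1 per condition. Image extraction by the authors used Feature Extraction 11.5.1.1 (version per the file headers), with subtraction of background and a spatial trend and flagging of outlier spots. The deposited values are this processed signal, a linear intensity that was not normalized between arrays. The deposited value table holds the same intensity for every spot. The study's own values, from GeneSpring GX with quantile normalization, are not used here. Its methods name Agilent's miRNA labelling kit, whereas the labels describe reverse transcription of total RNA.

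Spots carrying an outlier flag (4 kinds) were dropped (6 of the members' 240 spots in normoxia, 10 in hypoxia). The remaining spots of each of the members' 22 probes were averaged. Probe means of all 4415 miRNA probes were quantile-normalized in Python 3.11.15, and a miRNA's log2 difference averages those of its probes that both arrays detected. Where only 1 array detected a miRNA, its normalized signal there was divided by the dim array's lowest detected signal or by the dim probe's own, whichever was higher, to give a bound. A comparison of differences between miRNAs was made on the log2 scale, and signals of different probes were not set against each other. The 2-fold threshold is the study's. The code was tested on simulated arrays with changes placed only on bright probes, so that test did not cover changes near background. Alternatives were other scalings, normexp (offset 50, limma 3.58.1), other spot and probe summaries, other detection filters, the value table, and the detection call and summed intensity given by the software.

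The median spot CV of probes detected on both arrays was 9.18% in normoxia and 14.9% in hypoxia, and the number of arrays limits the precision. The array design names the mm9 build. Sequences and coordinates are from RefSeq for GRCm38.p6, and the signals were matched to them by miRNA name only. The members, all of which are named, and the lists beside them (other arms, let-7 partners, relatives, cell type markers and the 3 miRNAs nearest to the members' median) were chosen with earlier results of these data known.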

Additional observations from a re-analysis of the deposited data

How the results depend on the processing

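No paired analysis was possible because normoxia and hypoxia have a single array each, and no replicate could be left out. The median log2 difference of the members (0.68) was 1.17 with the 75th percentile of all probes set equal, 0.24 without normalization, 0.28 with normexp and 0.0931 with the software's call and summed signal. The members at least 2-fold higher (2) numbered 4 with the 75th percentile of all probes (32.2% of all measured miRNAs). With all spots kept there were 3 (22.2%), with miR-100-5p at a log2 difference of 1.08. There was 1 without normalization (11.1%), with the hybridization spike-ins (13.9%) or with every spot required well above background (20.1%). The count was 0 with normexp (6.11%) or no filter on dim probes (1.70% of all 1881). The members at least 2-fold lower (0) numbered 1 with the software's call, which gave miR-125b-5p a log2 difference of -1.04 and called 50 of 212 miRNAs (23.6%) so. The median of the let-7 partners (-0.33) was 0.26 with the 75th percentile of all probes, -0.67 without normalization, -0.54 with the hybridization spike-ins, 0.0202 with all spots kept and -0.66 with the software's call. Scalings by a single factor moved all miRNAs alike. With no filter, signals under the lowest detected one were set to it, which draws miRNAs with dim probes to a fixed difference. The normexp offset, added to every signal, shrinks the log2 differences of dim signals. The causes of the other changes were not tested.

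Of 70 values of single members under the alternatives, leaving out the value table, which repeats the processed signal, 43 kept their sign within 1 SD over spots, 24 kept it further away and 3 changed sign: miR-125b-5p at 0.04 with the 75th percentile of all probes, and miR-99b-3p at -0.12 without normalization and -0.66 with the software's call. Some of the 43 could not differ: a member's only detected probe is also its brightest, and a change of filter leaves a member alone if its probes used stay the same. Only miR-100-5p, miR-125a-5p, miR-125a-3p and miR-125b-5p were measured on both arrays under the filter on every spot. The median of all 180 miRNAs shifted from 0.17 to 0.66 with the 75th percentile of all probes, 0.05 with that of detected probes, -0.27 without normalization, -0.14 with the hybridization and 0.21 with the labelling spike-ins. Signals near background, as for miR-99a-5p, miR-99b-5p and miR-99b-3p, limit what can be said of those members.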
